A study of Caenorhabditis elegans with 8 samples.

Results

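The ttr genes of the worm Caenorhabditis elegans encode small transthyretin-like proteins. They were compared between arrested first-stage larvae (L1) of the wild-type strain N2 and of HBR227, a strain mutant for aptf-1 (allele gk794). Members were the genes of the count table named ttr followed by a number, 59 of 46422 gene rows, picked by name alone. The family itself was taken up with earlier results of these data known. Both strains went through the same preparation: eggs freed from adults with hypochlorite were kept in M9 buffer, which holds no food, and whole larvae were collected after 48 hours with no further treatment. APTF-1 is a transcription factor of the AP2 family that the sleep neuron RIS requires, so the comparison asks which ttr transcripts differ in starved larvae with this mutation. Each strain had 4 libraries, called biological replicates A to D by the labels. Separate cultures are not named, so a p-value here covers the spread among these libraries only, part of which may be technical.

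Transthyretin carries thyroid hormone in vertebrate blood, and nematodes have a large family of distantly related proteins, most of which carry a signal peptide and are thought to be secreted. The function of most members is not known. TTR-52 is a secreted protein that binds phosphatidylserine on the surface of dying cells and the engulfment receptor CED-1 on neighbouring cells, and it also takes part in the re-joining of cut axons. TTR-33 has been linked to the protection of dopaminergic neurons from oxidative stress, and TTR-11 binds phosphatidylserine on cut axons.

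Total counts were between 43.6 and 65.0 M (M, counts in units of 1e6) per library. One library, HBR227 A, lay apart: on the first principal component of log2 CPM, which held 46.05% of the variance, it stood at 74.3 and the other 7 between -28.3 and 9.86. Results are therefore given with and without it. N2 libraries A to D held 161, 196, 182 and 234 reads of aptf-1 itself, against 33, 69, 56 and 52 for the mutant libraries in the same order, so the gene was lower in all 4 libraries labelled HBR227 (log2 fold change -1.92 ± 0.16, SE; adjusted p = 0.00011 in edgeR). Markers of muscle, pharynx, intestine, neurons, hypodermis, glia and germ line were present in both strains, as whole larvae should show, and the 3 adult yolk genes summed to 2.29 to 2.90 CPM in N2 and 3.71 to 5.26 in HBR227. Of 26 marker genes tested in 8 lists, ges-1 (intestine) and vit-6 (yolk) were higher, dpy-7 (hypodermis) and vap-1 (glia) were lower, and 22 did not pass the test, so that 4 of 26 were called against 21.5% of all genes. Without HBR227 A, 3 of 4 intestine, 2 of 4 neuron and 1 of 2 pharynx markers were higher, besides 1 of 3 yolk genes, and 1 of 4 hypodermis and 1 of 3 glia markers were lower, in a fit that called 44.3% of all genes. The summed hypodermis markers ranged from 77.8 to 84.0 CPM in N2 and from 68.2 to 88.0 in the mutant, and the summed glia markers, of which mir-228 was at 0 throughout, from 123 to 148 and from 96.6 to 125. The part of these markers in the ttr results was not tested.

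All 59 members were found on the WBcel235 assembly, 22 on chromosome V, 12 on X, 10 each on III and IV, 3 on I and 2 on II. Protein-coding annotation covered 58 of them, and ttr-4 was annotated as a pseudogene. The coding sequence of most members was short and broken by few introns: its median length was 429 bases, 53 of the 58 lay between 390 and 540 bases, and 57 had 2 to 5 coding exons. The exception was ttr-14, with 9 coding exons and 1218 bases. Many members were neighbours, since 30 lay within 10 kb of another member, in 12 groups of 2 to 4 genes.

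The family spanned a wide range of levels in arrested larvae. Levels below are CPM, counts relative to 1e6 counts of the library, scaled by TMM (a trimmed mean that aligns libraries on most genes), and comparisons between genes use CPM per kb of exon. In N2 the highest members were ttr-16 at 411 ± 4.17 CPM per kb, ttr-17 at 308 ± 12.5, ttr-15 at 211 ± 6.53, ttr-50 at 209 ± 24.5 and ttr-46 at 137 ± 7.97 (SD, n = 4 each). The order of ttr-15 and ttr-50 was within their spread. These 5 genes held 48.8 to 51.1% of all ttr counts in the N2 libraries and 43.9 to 47.4% in the HBR227 libraries. In CPM per gene, 47 of the 59 members reached 1 in N2, 30 reached 10 and 4 reached 100.

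**Figure D1:**
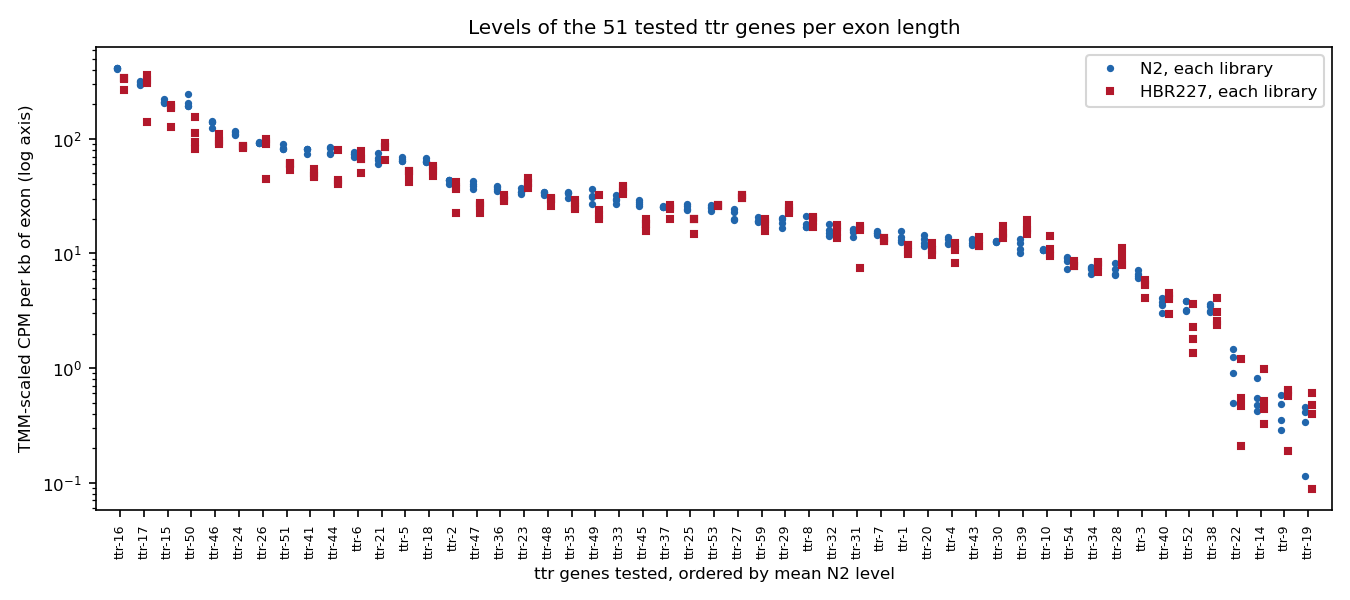
Level of the 51 tested ttr genes in each of the 8 libraries, as TMM-scaled CPM per kb of exon on a log axis, ordered by the mean N2 level. The highest member, ttr-16, averaged 411 CPM per kb in N2, and ttr-19, the lowest of those tested, 0.330.

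The 8 members left out by the low-count filter were near silent. They were ttr-11, ttr-12, ttr-13, ttr-42, ttr-55, ttr-56, ttr-57 and ttr-58, with 1 to 37 counts over all 8 libraries together and no more than 11 in any library. Most of these lie together, ttr-55, ttr-56 and ttr-58 side by side on chromosome I (6145455 to 6148836), and ttr-11, ttr-57, ttr-12 and ttr-13 near each other on chromosome V, between 20603314 and 20636955. For ttr-11, the gene with a role at cut axons, N2 libraries A to D gave 0, 0, 1 and 1 counts, against 0, 1, 8 and 1 for the mutant. A count of 0 allows up to 3 counts, or 0.0669 CPM in N2 A, and this limit covers counting error only. No difference in ttr-11 was detectable at this depth.

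The summed ttr genes made up a smaller part of the HBR227 libraries. Their summed level was 1496, 1551, 1534 and 1557 CPM across N2 A to D, against 1125, 1319.6, 1241 and 1270.4 across HBR227 A to D. Every HBR227 library lay below every N2 library, with a wild-type mean of 1534 ± 27.6 and a mutant mean of 1239 ± 82.7 (SD, n = 4 each). Without HBR227 A the HBR227 mean was 1277 CPM. This sum is dominated by the few most abundant members and is given without a test.

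Single members went both ways, and more of them fell than rose. Of the 51 tested, 18 passed an adjusted p of 0.05, 13 lower and 5 higher in HBR227. Over all genes tested the shares called were 21.5% in either direction, 10.4% lower and 11.2% higher, and among the ttr genes they were 35.3%, 25.5% and 9.80%. The median log2 fold change was -0.17 for the ttr genes and 0.00 for all genes, with 68.6% of ttr genes and 50.4% of all genes below 0. With total counts alone as the scale, which moved the median of all genes to -0.11, 20 members were lower and 2 higher, against 17.8% and 6.7% of all genes (24.5% in either direction). The changes were small: 14 of the 18 were under 1.5-fold and none reached 2-fold. In whole larvae, fewer cells that express a gene and less RNA per cell cannot be told apart.

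**Figure D2:**
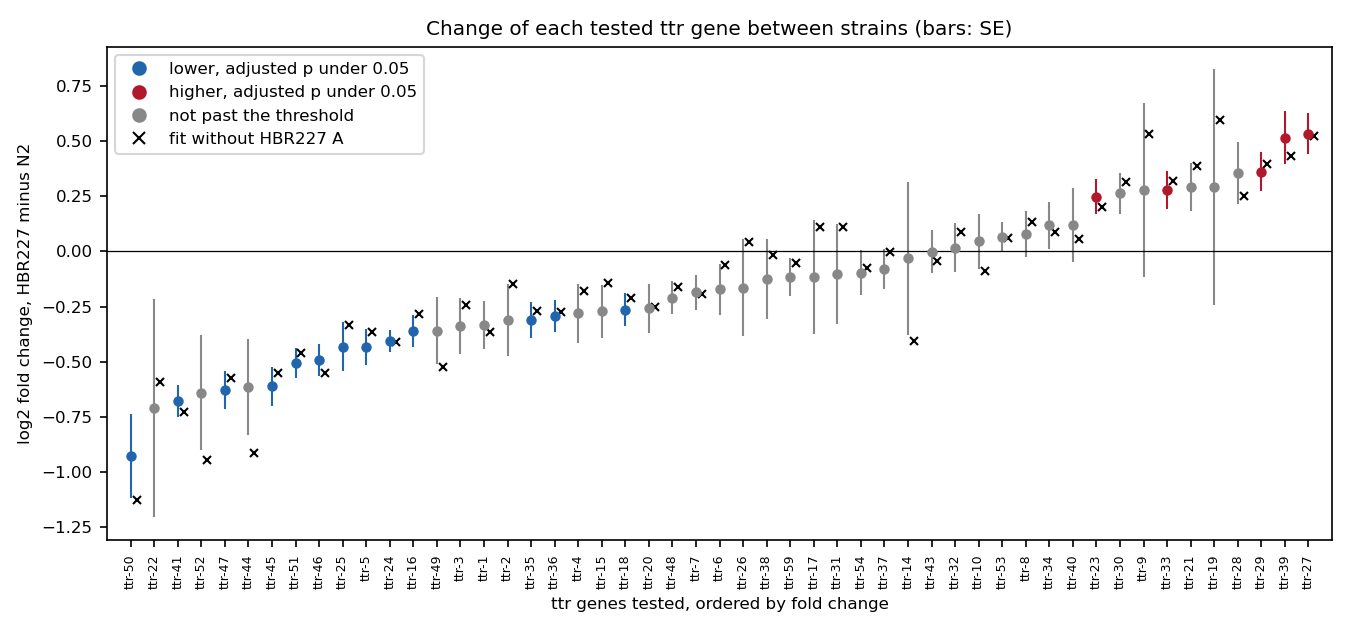
Log2 fold change (HBR227 minus N2) of each of the 51 tested ttr genes with its standard error, coloured by call, with crosses for the fit without HBR227 A. The values run from -0.93 (ttr-50) to 0.53 (ttr-27), and 35 of the 51 lie below 0.

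Without HBR227 A, 26 of the 51 members were called, 19 lower and 7 higher. That fit called 44.3% of all genes, 23.3% lower and 21.0% higher, beside ttr shares of 37.3% lower and 13.7% higher. All 18 members called with 8 libraries were called again in the same direction. The 8 that were added were ttr-1, ttr-15, ttr-44, ttr-48, ttr-49 and ttr-52, all lower, and ttr-21 and ttr-30, both higher. In CPM, the strains did not overlap at 24 of the 51 members, 18 lower and 6 higher, against 28.9% of all genes (14.4% lower and 14.5% higher). Without HBR227 A they did not overlap at 28 members, 21 lower and 7 higher, against 47.9% of all genes (25% lower and 22.9% higher). With 8 libraries this held for all 13 lower and all 5 higher calls, which rest on the same values, so it is no separate support for them.

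The largest fall was in ttr-50 (chromosome IV, 11640047 to 11641015, minus strand), a member with a coding sequence of 639 bases. Its level was 178, 224, 186 and 177 CPM across N2 A to D, against 140.5, 103, 74.0 and 85.4 across HBR227 A to D. All HBR227 libraries were below all N2 libraries, and HBR227 A was the highest of the mutant libraries. The log2 fold change was -0.93 ± 0.19 (SE; adjusted p = 0.011), a drop of 1.90-fold, and -1.13 ± 0.14 without HBR227 A (adjusted p = 0.00064).

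ttr-41 (chromosome II, 4727328 to 4727869, minus strand) had the smallest p of the family. Its level was 36.3, 40.6, 40.2 and 40.4 CPM in wild-type libraries A to D, against 27.2, 24.7, 23.5 and 23.1 in the mutant, with a wide gap between the strains. It fell in all mutant libraries (log2 fold change -0.68 ± 0.07, adjusted p = 0.00033). ttr-24 (chromosome V, 18555387 to 18556643, minus strand) came next, with 65.2, 63.8, 67.2 and 69.3 CPM in N2 against 50.7, 49.5, 49.7 and 50.7 in HBR227. The mutant libraries, HBR227 A included, were nearly equal here (log2 fold change -0.41 ± 0.05, adjusted p = 0.00057).

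The members ttr-47, ttr-45, ttr-51 and ttr-46 fell by more than 0.45 on the log2 scale, with every HBR227 library below every N2 library. ttr-47 (chromosome V, 8923088 to 8923896) stood at 18.7, 20.6, 19.8 and 21.7 CPM across N2 A to D, against 11.5, 13.5, 13.99 and 13.3 across HBR227 A to D (-0.63 ± 0.09, adjusted p = 0.001). Exons of H14N18.4 on the opposite strand cover 10.2% of its exon length, and H14N18.4 was higher in HBR227 (0.36 ± 0.09, adjusted p = 0.019). ttr-45 (chromosome IV, 13254225 to 13255538) stood at 18.2, 19.2, 19.8 and 17.5 CPM in N2 against 10.7, 13.5, 12.3 and 12.4 in HBR227 (-0.61 ± 0.09, adjusted p = 0.0014). Its neighbour ttr-51 (13250655 to 13252311) had 38.8, 40.4, 38.9 and 43.1 CPM in N2 against 25.7, 29.1, 29.1 and 29.7 in HBR227 (-0.50 ± 0.07, adjusted p = 0.001). ttr-46 (chromosome V, 9951233 to 9952178) had 94.0, 83.1, 92.4 and 94.3 CPM in N2 against 72.9, 59.6, 62.5 and 63.8 in HBR227 (-0.49 ± 0.07, adjusted p = 0.0016). HBR227 A was the lowest mutant library for ttr-47, ttr-45 and ttr-51 and the highest for ttr-46.

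The other 6 lower members fell less than ttr-46. ttr-16, the most abundant member, averaged 211 ± 2.14 CPM in N2 against 165 ± 17.7 in the mutant (SD, n = 4; log2 fold change -0.36 ± 0.07, adjusted p = 0.0074), with a mutant mean of 174 ± 2.20 CPM without HBR227 A. Exons of lin-3 on the opposite strand cover 40.7% of the ttr-16 exon length. The gene lin-3 encodes the worm's epidermal growth factor and stood at 22.2 ± 2.55 CPM in N2 and 22.7 ± 2.61 in HBR227 (0.03 ± 0.11, adjusted p = 0.86). The remaining falls were ttr-25 (-0.43 ± 0.11), ttr-5 (-0.43 ± 0.08), ttr-35 (-0.31 ± 0.08), ttr-36 (-0.29 ± 0.07) and ttr-18 (-0.26 ± 0.07). Of these, ttr-25, ttr-35, ttr-36 and ttr-18 each lost the call in some fits that left out 1 library (adjusted p up to 0.075, 0.088, 0.072 and 0.10).

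The rises, 5 in all, were led by ttr-27 (chromosome V, 12903550 to 12904098, minus strand). Its level was 11.5, 10.05, 9.83 and 12.4 CPM across N2 A to D, against 16.2, 15.4, 16.4 and 15.3 across HBR227 A to D. All mutant libraries were above all N2 libraries (1.45-fold; log2 fold change 0.53 ± 0.09, adjusted p = 0.0032). ttr-39 (chromosome IV, 10088367 to 10089877, minus strand) had 8.43, 6.91, 7.51 and 9.001 CPM in N2 against 13.3, 9.98, 11.3 and 10.96 in HBR227 (0.52 ± 0.12, adjusted p = 0.014). HBR227 A was the highest library for ttr-39, and without it the change was 0.43 ± 0.09 (adjusted p = 0.0012). Exons of ndc-80, a kinetochore gene on the opposite strand, cover 10.4% of the ttr-39 exon length, and ndc-80 itself did not pass the test (-0.40 ± 0.19, adjusted p = 0.18). The smaller rises were ttr-29 (0.36 ± 0.09, adjusted p = 0.019) and ttr-23 (0.25 ± 0.08, adjusted p = 0.048), besides ttr-33. Both lost the call in some fits that left out 1 library (adjusted p up to 0.062 and 0.10) and with total counts alone.

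**Figure D3:**
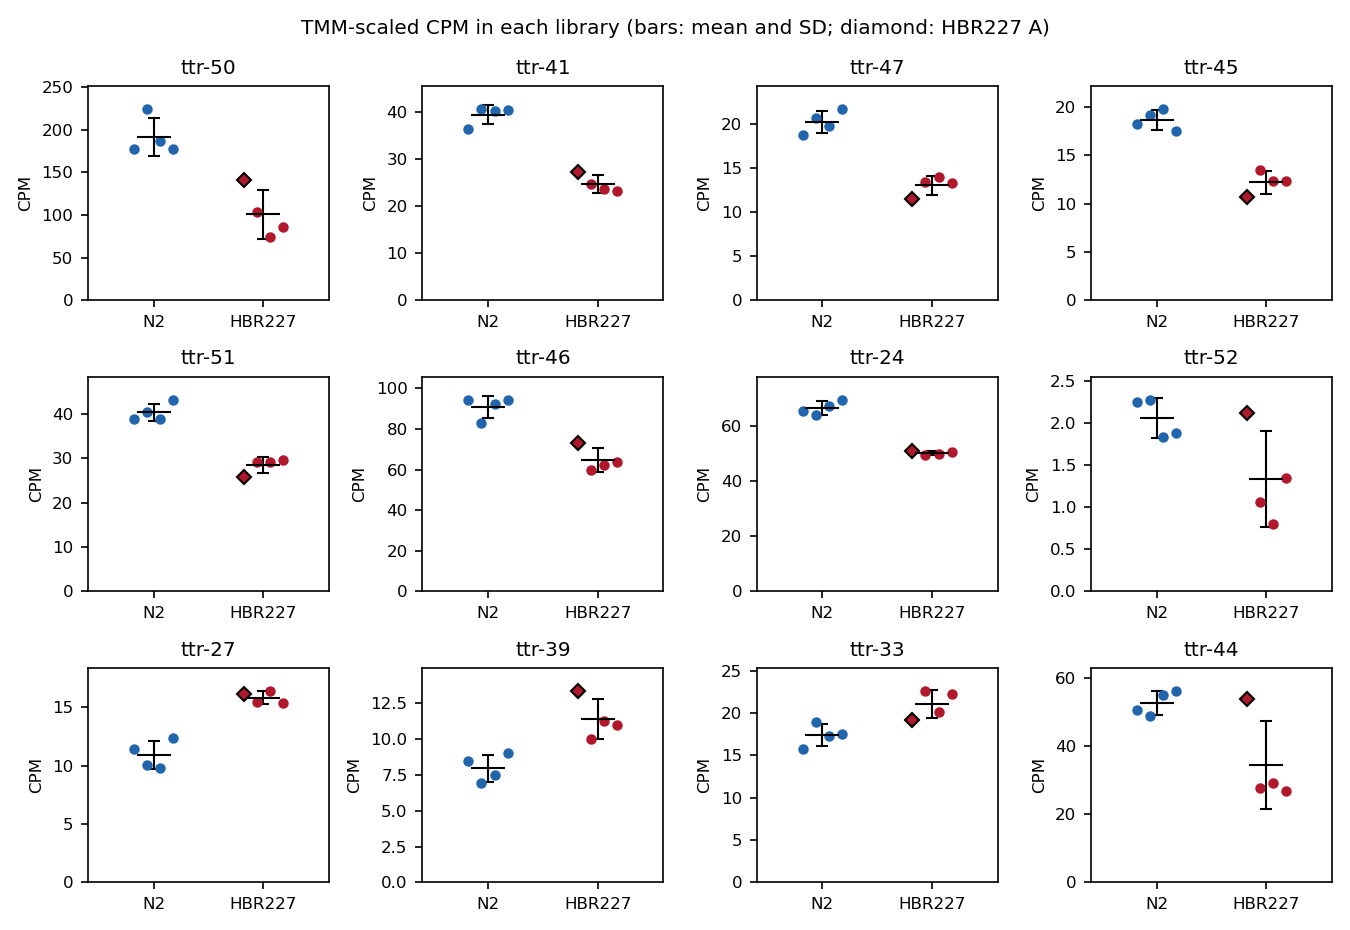
TMM-scaled CPM of 12 ttr genes in each library, with the mean and SD of each strain (n = 4) and HBR227 A drawn as a diamond. The genes were chosen by known role, small p or large fold change, so the gap between strains at 10 of the 12 partly follows from that choice. Over all genes tested, the strains did not overlap at 28.9%. At ttr-52 and ttr-44 HBR227 A lies among the N2 libraries, at 2.12 and 53.8 CPM.

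The 2 measurable members of known role gave different pictures. ttr-33 (chromosome V, 7837093 to 7837909, minus strand), the gene linked to dopaminergic neurons, had 15.8, 19.0, 17.3 and 17.5 CPM across N2 A to D, against 19.2, 22.6, 20.1 and 22.3 across HBR227 A to D. The strains did not overlap, but N2 B and HBR227 A lay close to each other, and the rise was small (1.21-fold; 0.28 ± 0.09, adjusted p = 0.044). That call was lost without any 1 of N2 A, C or D or HBR227 B, C or D (adjusted p up to 0.12), and with total counts alone. ttr-52 (chromosome III, 13404718 to 13405783, plus strand), the corpse recognition gene, was among the scarcer members, with 2.25, 2.28, 1.84 and 1.88 CPM in N2 against 2.12, 1.06, 0.801 and 1.35 in HBR227. HBR227 A lay within the N2 range and the other mutant libraries lay below all of N2. The fold change of ttr-52 was -0.64 ± 0.26 with all 8 libraries (adjusted p = 0.11) and -0.94 ± 0.18 without HBR227 A (adjusted p = 0.00051).

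The next genes were listed for roles in finding and engulfing dying cells or in fusing axons, where TTR-52 also acts. Not each of these genes need work with TTR-52 itself. Of 22 such genes tested, 8 were higher, 2 lower and 12 did not pass the test, against 11.2% and 10.4% of all genes. Their median log2 fold change was 0.10. The lipid-binding secreted protein gene nrf-5 rose from 60.3 ± 2.90 to 80.4 ± 5.403 CPM (SD, n = 4; 0.42 ± 0.06, adjusted p = 0.0018). Rises were also seen in rab-7 (0.27 ± 0.05, adjusted p = 0.0038), which acts in phagosome maturation, and in ced-1 (0.25 ± 0.06, adjusted p = 0.015), the engulfment receptor gene. The falls were ina-1 (-0.33 ± 0.06, adjusted p = 0.0063), an integrin alpha subunit gene, and mig-2 (-0.26 ± 0.07, adjusted p = 0.029), a Rac-like GTPase gene. Without HBR227 A, 11 of the 22 were higher and 4 lower, against 21.0% and 23.3% of all genes. With total counts alone the balance turned, with 2 higher and 3 lower, against 6.7% and 17.8% of all genes.

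Dopaminergic genes and enzymes that handle oxidants were looked at for the role of ttr-33. Of 6 dopaminergic genes, 0 passed the test in edgeR, against 21.5% of all genes, and 0 had an unadjusted p under 0.05. With so few genes, this count cannot set the list apart from all genes. In limma voom and in DESeq2 the adjusted count was also 0, with 1 gene at an unadjusted p under 0.05 in each. For cat-2, the tyrosine hydroxylase gene of dopamine synthesis, the value was -0.56 ± 0.26 (adjusted p = 0.16), and it was lower without HBR227 A (-0.32, adjusted p = 0.016). In that fit 1 of the 6 was lower and 0 higher, against 23.3% and 21.0% of all genes. There bas-1 (0.05), dat-1 (0.08), cat-4 (0.07) and tsp-17 (0.17) were above 0 and cat-1 (-0.15) below, none of them called. Of 23 such enzymes, 3 were higher and 3 lower, against 11.2% and 10.4% of all genes. The rises were sod-4 (0.37 ± 0.06, adjusted p = 0.002), gpx-3 (0.42 ± 0.07, adjusted p = 0.0019) and trxr-1 (0.22 ± 0.05, adjusted p = 0.013). The falls included trx-1 (-0.96 ± 0.20, adjusted p = 0.0086), a thioredoxin gene of the ASJ neurons, with sod-3 and sod-2 as the other two. Without HBR227 A, 4 of the 23 were higher and 7 lower, against 21.0% and 23.3% of all genes, and with total counts alone 2 were higher and 6 lower, against 6.7% and 17.8%.

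Changes of neighbouring members were set side by side. Of 12 groups of members within 10 kb, 10 had at least 2 tested genes. With 8 libraries, all tested genes had the same sign in 7 of those, where 68.6% of all tested members were below 0. How many groups would share a sign from that share alone was not tested. Without HBR227 A, ttr-17 turned to 0.11 beside ttr-16 at -0.28. In that fit ttr-26 also turned, to 0.04, beside ttr-24 at -0.41 and ttr-25 at -0.33, so these groups no longer had 1 sign. On chromosome V, the adjacent genes ttr-27, ttr-28 and ttr-29 (12903550 to 12906832, all on the minus strand) had changes of 0.53 ± 0.09, 0.35 ± 0.14 and 0.36 ± 0.09, of which the middle one did not pass the test (adjusted p = 0.10). On chromosome IV, ttr-51 and ttr-45, next to each other on opposite strands, both fell. On chromosome X, ttr-36 and ttr-35 (6510927 to 6512918, both on the plus strand) both fell.

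In other groups that had 1 sign with 8 libraries, some or all members missed the threshold. Of ttr-24, ttr-25 and ttr-26 (chromosome V, 18555387 to 18560288), the first pair fell and ttr-26 did not pass the test (-0.16 ± 0.22, adjusted p = 0.64). The group of ttr-4, ttr-3, ttr-2 and ttr-1 (chromosome III, 9916190 to 9930413) had values of -0.28 ± 0.13, -0.34 ± 0.13, -0.31 ± 0.16 and -0.33 ± 0.11, none past the threshold. The values of ttr-3 and ttr-4 are uncertain. Counts of the pseudogene ttr-4 were 0.912 to 0.996 of those of ttr-3 in every library, and the exons of ttr-4 lie wholly within exons of cbp-3 on the opposite strand. Signs differed between ttr-54 and ttr-53, between ttr-40 and ttr-49, and between ttr-59 and ttr-30. No set of neighbours was tested as a set.

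**Figure D4:**
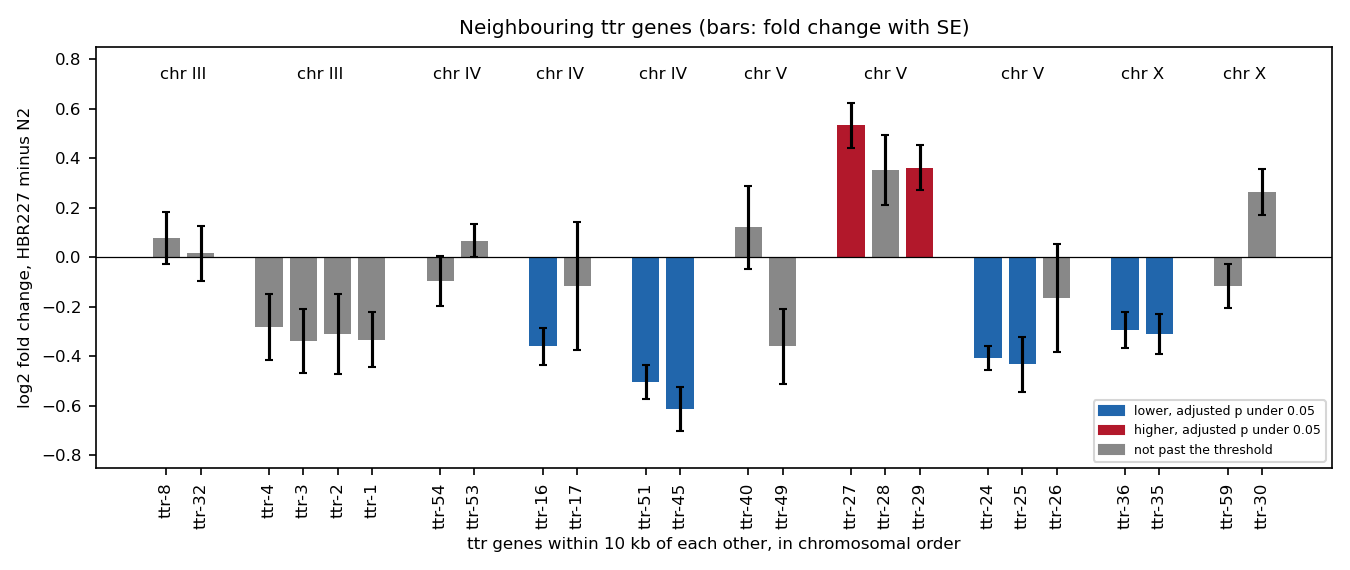
Log2 fold change (HBR227 minus N2, with SE) of the tested ttr genes that lie within 10 kb of another tested member, in chromosomal order. With all 8 libraries, all bars point the same way in 7 of the 10 groups: 5 groups lie below 0 and 2 above.

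With all 8 libraries, lower calls lay among the more abundant members. All 13 lower members were among the 25 with the highest CPM per kb in N2, which also held 2 of the higher members. That cut lies at the lowest-ranked lower call, ttr-25, so the absence of lower calls below it follows from the cut. The N2 level also enters the fold change, so rank and call are not independent. Among the 26 members with lower levels, 0 were called lower and 3 higher. This did not hold without HBR227 A. In that fit ttr-1 (adjusted p = 0.0079) and ttr-52 (adjusted p = 0.00051), both among the 26, were called lower. There ttr-30, also among the 26, was called higher (adjusted p = 0.0037). All genes were not split by level for comparison. Members with lower levels also had fewer counts, and the part of depth in this was not tested. The most abundant members not past the threshold were ttr-17 (142 ± 5.74 to 131 ± 45.4 CPM; -0.12 ± 0.26), ttr-15 (129 ± 3.97 to 107 ± 19.6; -0.27 ± 0.12) and ttr-26 (51.2 ± 0.546 to 45.7 ± 14.1; SD, n = 4 each). The largest changes that missed the threshold were those of ttr-22 (-0.71 ± 0.49, at 0.484 CPM in N2), ttr-52 and ttr-44 (-0.62 ± 0.22, adjusted p = 0.079).

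HBR227 A lay below the other mutant libraries at some members and above them at others. Its CPM was below all of HBR227 B, C and D at 28 of the 51 members and above them at 15, against 38.5% and 43.2% of all genes. At ttr-17 it had 64.7 CPM where B, C and D had 141 to 167 and N2 had 136 to 148. At ttr-26 it had 24.8 CPM, with 50.5 to 55.5 in B, C and D and 50.7 to 51.8 in N2. At ttr-31 it had 4.17 CPM, with 8.83 to 9.69 in B, C and D and 7.79 to 9.17 in N2. In these 3 genes the other mutant libraries were close to N2 and only HBR227 A was low.

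At ttr-44 the reverse was seen. N2 had 49.0 to 56.2 CPM, HBR227 A had 53.8, and B, C and D had 26.99 to 29.3. Without HBR227 A the fold change of ttr-44 was -0.91 ± 0.05 (adjusted p = 3e-09), the smallest adjusted p of the family in that fit. Exons of R11G10.3 on the opposite strand cover 25% of the ttr-44 exon length, and R11G10.3 was higher in HBR227 (0.47 ± 0.12, adjusted p = 0.021). At ttr-52, too, HBR227 A lay within the N2 range and above B, C and D. At ttr-50 it lay above B, C and D but below all N2 libraries.

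**Figure D5:**
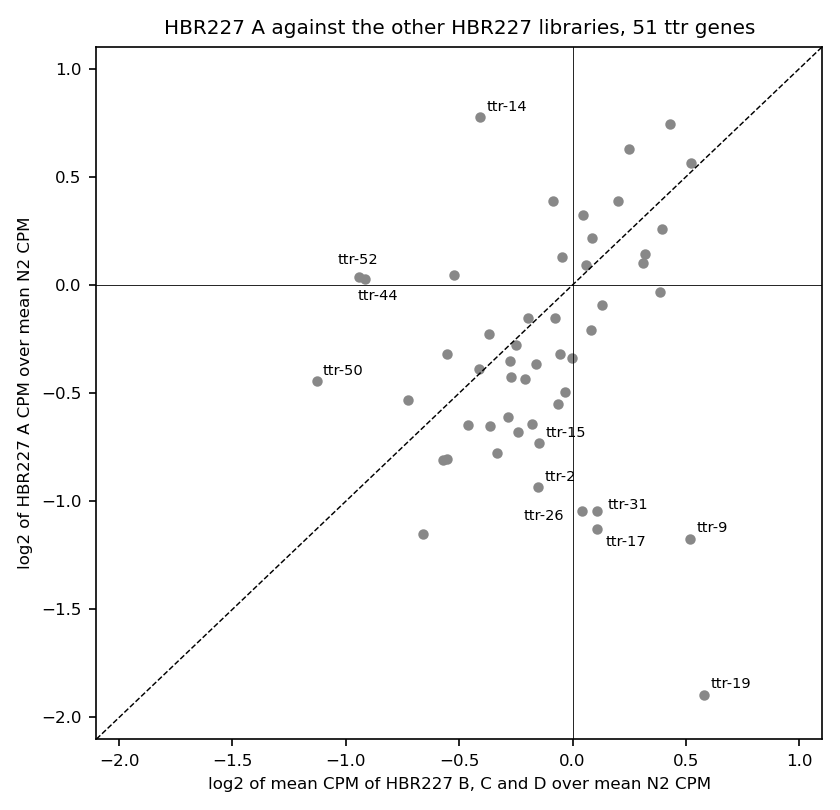
For each of the 51 tested ttr genes, the log2 ratio of HBR227 A to the N2 mean against that of the mean of HBR227 B, C and D, with a dashed line of equality. Named genes differ by more than 1.5-fold between HBR227 A and the other mutant libraries: 7 lie below the line and 4 above.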

How the data were processed

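Raw gene counts of 8 RNA sequencing libraries were deposited by the authors as 1 table, per the file headers one column per library. Per the submitters' processing notes, Bowtie 0.12.2 was among the tools, and WBcel235 and mm8 among the builds, with no role stated. How reads were counted, with which annotation and whether by strand, is not given in the sources used here, so reads of overlapping genes cannot be told apart. Of 46433 rows, 11 with names turned into dates (0.0333% of counts) were left out. Positions and exon lengths are from Ensembl release 115 (WBcel235, 1-based), with ttr-4 matched through RefSeq.

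HBR227 and N2 were compared over all 17522 genes that passed filterByExpr (minimum count 10), with edgeR 4.0.16 in R 4.3.3, TMM scaling and the robust quasi-likelihood F test. P-values were adjusted by Benjamini-Hochberg over all genes tested. All adjusted p in the text are from this test, errors of fold changes are standard errors derived from the F statistic, and fold changes are HBR227 minus N2. Alternatives used limma 3.58.1, DESeq2 1.42.0, other scalings and filters, a block for the replicate letter, and fits that each left out 1 library. Libraries of one strain were not repeats of each other (chi-square per degree of freedom of 4.44 or more). The fitting script was tested on simulated data, where 43% of genes changed 1.5-fold and 78% of those changed 2-fold were called. Of the calls there, 5.47% were false. A member not called may therefore still differ between the strains.

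The members and lists were chosen with earlier results of these data known. Named were aptf-1, all called members, members of known role, and the 3 most abundant and the 3 most changed members not called. The 4 called genes of smallest p in each context list were named too. Near-identical copies were to be named, but sequences of the members were not compared. The genes mig-2, sod-3 and sod-2 were added after their values were seen, to complete small counts. The dopaminergic genes, none called with all libraries, were named outside these rules. Neighbour groups, overlapping genes and library HBR227 A were described after their values were seen, as were the genes named with them.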

Additional observations from a re-analysis of the deposited data

Results flagged for a closer look

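Sets of 4 values were looked at for 51 members and their sum in each strain, 104 sets in all. A library stood apart from the other 3 of its strain in 11 of them, judged by the gap to the nearest value over the range. Chance gives about 1 in 20 for independent sets. These sets come from the same libraries, so the count cannot be compared with that rate. In 9 of the 11 the library was HBR227 A. It was low at ttr-9 (0.109 CPM, the others 0.328 to 0.371), ttr-15 (77.5 CPM, the others 113 to 120), ttr-16 (138 CPM, the others 171 to 175) and ttr-25 (8.49 CPM, the others 11.5 to 11.6). It was also low at ttr-26 (24.8 CPM), ttr-31 (4.17 CPM), ttr-48 (15.97 CPM, the others 18.2 to 18.7) and ttr-51 (25.7 CPM, the others 29.1 to 29.7). It was high at ttr-44, with 53.8 CPM against 26.99 to 29.3. N2 A was low at ttr-35 (16.6 CPM, the other N2 libraries 18.3 to 18.6) and at ttr-41 (36.3 CPM, the others 40.2 to 40.6). The genes ttr-35 and ttr-41 fell in HBR227, and at both every HBR227 library was still below N2 A.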

How the results depend on the processing

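Of the 18 called members, 11 were called in every fit that left out 1 library: ttr-5, ttr-16, ttr-24, ttr-27, ttr-39, ttr-41, ttr-45, ttr-46, ttr-47, ttr-50 and ttr-51. Calls were lost for ttr-25 without any 1 N2 library (adjusted p up to 0.075), for ttr-35 without N2 B, C or D or HBR227 C or D (up to 0.088) and for ttr-36 without N2 A or B or HBR227 D (up to 0.072). They were also lost for ttr-18 without any 1 N2 library or HBR227 B or C (up to 0.10), ttr-23 without N2 A, B or C or HBR227 B or D (up to 0.10), ttr-33 without N2 A, C or D or HBR227 B, C or D (up to 0.12) and ttr-29 without N2 C or HBR227 D (up to 0.062). Leaving out 1 library gave 2423 to 7906 genes called in all, with 7.4 to 21.0% of all genes higher and 5.84 to 23.3% lower. Of the 51 members tested, 2 to 7 were higher and 9 to 19 lower, with the largest counts and shares in the fit without HBR227 A. The member median was -0.25 to -0.14, and 3 to 11 corpse clearance genes were higher and 1 to 4 lower. The change of aptf-1 stayed between -1.97 and -1.80, and the summed ttr level within 1527 to 1547 CPM for N2 and within 1212 to 1277 for the mutant.

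With total counts alone, 2 members were higher and 20 lower, the median was -0.27, 2 corpse clearance genes were higher, and the N2 sum was 1592 CPM; the median of all genes was -0.11 there. Calls of ttr-23, ttr-29 and ttr-33 were lost there. Without a low-count filter, where more genes were tested, 3 members were higher and 11 lower, against 6.76% and 5.37% of all genes. Of the corpse clearance genes, 7 were higher and 1 lower in that fit. Calls of ttr-18, ttr-23, ttr-33 and ttr-36 were lost in it. Whether the replicate letters pair the libraries was not settled. Deviations of same-letter libraries from their strain means correlated at -0.014, 0.142, 0.034 and -0.014 for A to D. The largest correlations with another letter were 0.046, -0.004, 0.023 and 0.053. With the replicate block, 4 members were higher and 12 lower (9.35% and 8.14% of all genes), with 4 corpse clearance genes higher and 1 lower; ttr-23 (adjusted p = 0.097) and ttr-36 (0.0502) were lost. Upper quartile scaling lost ttr-18 (adjusted p = 0.0502). No called member changed sign in any of 288 fits. Signs turned for 9 members not called, the cause of which was not tested: ttr-43 (0.0054 with DESeq2 size factors, 0.0019 with upper quartile scaling, 0.011 in DESeq2, 0.013 with no filter, and -0.045 to 0.037 without 1 library), ttr-8 (-0.024), ttr-10 (-0.062), ttr-32 (-0.088) and ttr-53 (-0.038) with total counts alone, and, without 1 library, ttr-10 (-0.088 to 0.12), ttr-14 (-0.41 to 0.22), ttr-17 (-0.25 to 0.11), ttr-26 (-0.27 to 0.041), ttr-31 (-0.21 to 0.11) and ttr-32 (-0.036 to 0.10).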
